A study of Arabidopsis thaliana with 24 samples.

Results

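The expansin genes EXPA4, EXPA8, EXPA20 and EXPB1 were followed in Arabidopsis thaliana seedlings of 4 genotypes, each with and without the auxin indole-3-acetic acid (IAA). They were chosen by symbol, with earlier results of these data in view, as expansins other than the root hair genes EXPA7 and EXPA18. Each has 1 probe set annotated to it alone, among the 22746 non-control probe sets of the ATH1 array. The loci are AT2G39700 for EXPA4, AT2G40610 for EXPA8, AT4G38210 for EXPA20 and AT2G20750 for EXPB1, by the RefSeq gene table of the TAIR10.1 assembly. The choice is taken to rest on the IAA responses of the wild type and of axr3-1, their difference, and the comparisons of axr3-1 with other genotypes. Values of the 4 genes from those contrasts are a description, and nothing is read from their calls. Earlier results of the other mutants may have been in view as well. The p-values printed for those mutants may therefore not be free of the choice. Whole seedlings do not show which cells express a gene, so that the 4 act outside root hairs could not be checked.

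Expansins are wall proteins that loosen the cell wall without cutting its polymers, by letting cellulose and the matrix polysaccharides slip past each other. They act best at acid pH, and auxin acidifies the wall, so they are central to the acid growth account of auxin-driven cell elongation. The family holds alpha-expansins, named EXPA, beta-expansins, named EXPB, and the expansin-like genes, named EXLA and EXLB. EXPA7 and EXPA18 are the alpha-expansins of root hair cells. Auxin acts through Aux/IAA repressor proteins, which are degraded when the hormone is sensed, and IAA17, also called AXR3, is such a repressor.

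The 24 arrays were 3 for each of 8 groups. The genotypes were the Columbia wild type (Col), the single mutant iaa17-6, the mutant axr3-1, and the triple mutant iaa5-1 iaa6-1 iaa19-1, all 3 mutants in Columbia. The axr3-1 allele is known as a gain-of-function allele of IAA17 whose protein is stabilised, while iaa17-6 and the 3 alleles of the triple mutant are mutations in the repressor genes their names give. Seedlings were grown for 7 days in the light in liquid culture with 1.5% sucrose and were then given 5 µM IAA or ethanol, the control, for 2 h at 24 °C. RNA came from seedlings in bulk, so fewer cells of a type and less RNA per cell cannot be told apart. The labels number the replicates without saying that they were separate cultures, so the p-values measure only the spread between these arrays, which may be technical.

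Values are log2 signals, and none lies under 5.64, the log2 of 50, which is called the floor here. A probe set at the floor has only an upper bound. Differences are means over 3 arrays, each with the standard error (SE) of a limma fit of all 8 groups. A difference was called when its adjusted p was under 0.05. The adjustment was by the Benjamini-Hochberg method over the 14192 probe sets above the floor on at least 1 array. Shares of all probe sets given below are of those called in this way. No such share was counted at an unadjusted p.

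IAA acted in all 4 genotypes. The auxin-induced genes GH3.3, HAT2, LBD29 and IAA29 rose in 4 of 4 cases in each, by log2 3.00 to 5.86 in Col, 2.92 to 5.70 in iaa17-6, 2.02 to 4.47 in axr3-1 and 3.02 to 6.41 in the triple mutant. The mutated genes IAA17, IAA5, IAA6 and IAA19 have no probe set named for them alone here, so they give no check of the labels. The root marker PYK10 had group means between 12.37 and 12.61 and the leaf marker RCA between 12.04 and 12.28. FDH, listed with RCA for the shoot, was less even, at 11.32 in axr3-1 controls. Its control means were 10.50 in Col, 10.43 in iaa17-6 and 10.21 in the triple mutant, and limma called the difference from the last. FDH was matched to the list by symbol alone, and that its probe set measures a shoot gene was not checked. STOMAGEN, near the floor and listed for guard cells and the stomatal line, was called lower in axr3-1 controls (5.68) than in Col controls (6.37). SPCH, of the same list, ran from 5.75 to 6.21. The tissue make-up of the seedlings was not tested. Of the listed root hair markers, only EXPA7, EXPA18 and XTH26 had a probe set annotated to the listed symbol alone. These 3 were at the floor on all axr3-1 arrays and above it on the other 18 arrays. All 3 encode wall proteins, and the list was made with earlier results of these data known. A component that held 47.1% of the variance within groups set 6 arrays apart from the rest of their groups. They were Col control replicate 3, replicate 3 of iaa17-6 in each treatment, axr3-1 IAA replicate 3, and replicate 1 of the triple mutant in each treatment. Correlations within groups ran from 0.958 to 0.996.

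EXPA4, an alpha-expansin, was above the floor on all 24 arrays. Its control values were 8.88, 9.12 and 8.55 in Col, 9.29, 9.18 and 8.22 in iaa17-6, 8.78, 9.39 and 8.76 in axr3-1, and 9.37, 8.78 and 9.09 in the triple mutant. After IAA they were 10.28, 10.21 and 10.77 in Col, 10.33, 10.58 and 9.34 in iaa17-6, 10.06, 9.83 and 8.47 in axr3-1, and 10.23, 10.56 and 10.71 in the triple mutant. Every IAA array lay above every control array of its own genotype in Col, iaa17-6 and the triple mutant. The share of all probe sets whose groups separate in this way was not counted. Separations here and below therefore only describe the arrays. In axr3-1 the groups overlapped, as the third IAA array lay under all 3 control arrays.

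EXPA4 rose 2.68-fold with IAA in the triple mutant, by log2 1.42 (SE 0.38, n = 3 arrays per group, limma adjusted p = 0.0235). Its difference in iaa17-6 was log2 1.18 (SE 0.38, 95% interval 0.39 to 1.98) and missed the threshold (limma adjusted p = 0.0655). With the replicate number as a block for those 2 groups, within the fit of all 8 groups, the same difference passed (limma adjusted p = 0.0234). In Col, one of the contrasts the choice rested on, the difference was log2 1.57 (SE 0.38), or 2.97-fold. In axr3-1 it was log2 0.48, with a 95% interval from -0.32 to 1.27. Between axr3-1 and Col, EXPA4 differed by log2 0.13 in controls and by log2 -0.97 after IAA (95% interval -1.76 to -0.18), and neither difference was called. The last moved to log2 -0.48 without axr3-1 IAA replicate 3, and the IAA difference in axr3-1 moved to log2 0.97 without that array and to 0.17 without IAA replicate 1.

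The EXPA4 calls depended on single arrays. The rise in the triple mutant lost its call without control replicate 2 or 3 or without IAA replicate 2 or 3 (log2 1.27, 1.43, 1.39 and 1.32). The rise in Col lost its call without control replicate 3 or IAA replicate 3 (log2 1.42 and 1.39). In iaa17-6 the difference passed without IAA replicate 3 (log2 1.55, limma adjusted p = 0.0187). EXPA4 was the lowest of its group on 5 of the 6 arrays that stood apart, and so was EXPA20. EXPA8 was the highest of its group on 4 of them and the lowest on 1. Without those 6 arrays the IAA differences of EXPA4 were log2 1.42 in Col, 1.22 in iaa17-6, 0.97 in axr3-1 and 1.70 in the triple mutant. All 4 passed the threshold then.

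EXPA8, also an alpha-expansin, was above the floor on 22 of 24 arrays. In control seedlings it was 8.10, 7.02 and 8.48 in Col, 7.28, 6.42 and 7.64 in iaa17-6, and 7.05, 6.09 and 6.83 in the triple mutant. In axr3-1 it was at the floor on 2 control arrays and 5.79 on the other. After IAA it was 8.48, 8.56 and 9.29 in Col, 8.54, 8.26 and 8.28 in iaa17-6, 6.78, 6.26 and 6.21 in axr3-1, and 8.40, 7.74 and 8.11 in the triple mutant. Every axr3-1 control array lay below every control array of the other 3 genotypes, and every axr3-1 IAA array lay below every IAA array of the others. The IAA arrays lay above the control arrays in each genotype. In Col the highest control array and the lowest IAA array differed by less than the rounding, both at 8.48.

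EXPA8 rose 2.37-fold with IAA in iaa17-6, by log2 1.25 (SE 0.35, limma adjusted p = 0.0321), and 2.69-fold in the triple mutant, by log2 1.43 (SE 0.35, limma adjusted p = 0.0134). The difference in Col was log2 0.91 (SE 0.35) and was not called, and it was log2 0.48 without Col control replicate 2. In axr3-1 it was log2 0.72, with a 95% interval from -0.01 to 1.46, and its control mean is a bound in part, since 2 of its 3 arrays were at the floor. The call in iaa17-6 was kept on leaving out control replicate 3 and was lost without any of the other 5 arrays, where the differences ran from log2 0.90 without control replicate 2 to 1.33 without control replicate 1. The call in the triple mutant was lost without control replicate 2 (log2 1.14) or IAA replicate 1 (log2 1.27). Without the 6 arrays that stood apart the differences were log2 1.55 in iaa17-6 (limma adjusted p = 0.0417) and 1.47 in the triple mutant (limma adjusted p = 0.0572).

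Within each treatment the axr3-1 arrays lay lowest for EXPA8. The choice rested on the contrasts that follow, so their values and calls are a description. Against Col it was 4.52-fold lower in control seedlings, at log2 -2.18 (SE 0.35), and 5.13-fold lower after IAA, at log2 -2.36 (SE 0.35). Against iaa17-6 it was 2.67-fold lower in controls and 3.84-fold lower after IAA, and against the triple mutant 3.17-fold lower after IAA. Its control difference from the triple mutant was log2 -0.96 and was not called. The difference from iaa17-6 in controls, log2 -1.42, was not called without iaa17-6 control replicate 1 or 3 (log2 -1.33 and -1.15) or without axr3-1 control replicate 1 (log2 -1.39), nor with array weights (log2 -1.39) or with only those groups in the fit. Without the arrays that stood apart, the difference from iaa17-6 in controls was log2 -1.15 and that from the triple mutant after IAA was log2 -1.40, and neither was called. The differences from Col without those arrays were log2 -1.87 and -2.26. The root hair markers were at the floor in the same axr3-1 groups, and their part in the EXPA8 values was not tested.

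The control level of EXPA8 in the other mutants lay between those of Col and axr3-1, with no call against Col. The triple mutant differed from Col by log2 -1.21 (SE 0.35, limma adjusted p = 0.242) and iaa17-6 by log2 -0.76 (95% interval -1.49 to -0.02, limma adjusted p = 0.527). Both differences share the Col arrays, and the control arrays of each overlapped those of Col. Without Col control replicate 2, the lowest Col array, the triple mutant difference passed, at log2 -1.64 (limma adjusted p = 0.0329). With array weights it passed in controls, at log2 -1.33 (limma adjusted p = 0.0378), and after IAA, at log2 -0.79 (limma adjusted p = 0.0232), against log2 -0.69 without weights.

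EXPA20, the third alpha-expansin, was low on all arrays and was at the floor on 3 of them. In control seedlings it was at the floor on 2 Col arrays and 5.84 on the other. It was 6.10 and 5.96 with the last array at the floor in iaa17-6, 6.30, 6.35 and 6.51 in axr3-1, and 6.15, 5.84 and 5.91 in the triple mutant. After IAA it was 6.46, 6.71 and 6.75 in Col, 6.54, 6.61 and 6.40 in iaa17-6, 6.73, 6.16 and 5.82 in axr3-1, and 6.10, 6.66 and 6.70 in the triple mutant. The axr3-1 control arrays lay above those of every other genotype. IAA and control arrays were separate in Col and in iaa17-6 and overlapped in axr3-1 and in the triple mutant.

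EXPA20 rose 1.54-fold with IAA in iaa17-6, by log2 0.62 (SE 0.19, limma adjusted p = 0.0485). The difference in the triple mutant was log2 0.52 (95% interval 0.13 to 0.91) and was not called (limma adjusted p = 0.123). In Col the difference was log2 0.93 (SE 0.19), or 1.91-fold, and in axr3-1 it was log2 -0.15, with a 95% interval from -0.54 to 0.24. The axr3-1 control level was 1.60-fold that of Col, at log2 0.68 (SE 0.19), and its IAA level differed from that of Col by log2 -0.40. Folds against groups with arrays at the floor may understate the difference.

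The EXPA20 calls were close to the threshold. In iaa17-6 the call was kept without control replicate 1 (log2 0.72) and lost without any of the other 5 arrays, where the differences lay between log2 0.49 without control replicate 3 and 0.68 without IAA replicate 3. The triple mutant's difference passed without IAA replicate 1, one of the arrays that stood apart, at log2 0.72 (limma adjusted p = 0.0251). Without all 6 arrays that stood apart it was log2 0.81 in the triple mutant (limma adjusted p = 0.00789) and 0.55 in iaa17-6 (limma adjusted p = 0.0620). The higher control level in axr3-1 than in Col lost its call without Col control replicate 2 or 3 (log2 0.65 each) and without axr3-1 control replicate 1, 2 or 3 (log2 0.72, 0.70 and 0.62). After IAA the difference between axr3-1 and Col passed without axr3-1 IAA replicate 1, at log2 -0.65.

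EXPB1, the beta-expansin, was above the floor on 9 of 24 arrays, the control arrays of Col, iaa17-6 and the triple mutant. Those values were 6.33, 6.22 and 6.08 in Col, 6.27, 6.12 and 6.08 in iaa17-6, and 6.66, 6.26 and 6.61 in the triple mutant. All 12 IAA arrays and all 3 axr3-1 control arrays were at the floor. EXPB1 was thus measured in control seedlings of 3 genotypes and was not detected above the floor after IAA in any genotype.

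With IAA, EXPB1 was at least 1.43-fold lower in iaa17-6, at log2 -0.51 (SE 0.08). In the triple mutant it was at least 1.82-fold lower, at log2 -0.87 (SE 0.08). In Col it was at least 1.48-fold lower after IAA, at log2 -0.57 (SE 0.08). It was lower by the same bound in axr3-1 controls than in Col controls. In axr3-1 both treatments were at the floor, so its IAA response has no value. EXPB1 was among the probe sets tested only through the 9 control arrays on which it was above the floor, the groups in which it is high. Its IAA differences in iaa17-6 and the triple mutant were called. Those calls are a description, and no p is printed for them. In 5 of the 8 groups the floor leaves no spread between arrays, and the SE pools those groups with the control groups, whose SD was 0.10 in iaa17-6, 0.13 in Col and 0.22 in the triple mutant. The root hair markers were at the floor in axr3-1 as EXPB1 was, but they stayed above it on all 9 IAA arrays of the other genotypes, where EXPB1 was at the floor. The part of root hair cells in the axr3-1 value was not tested.

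**Figure D1:**
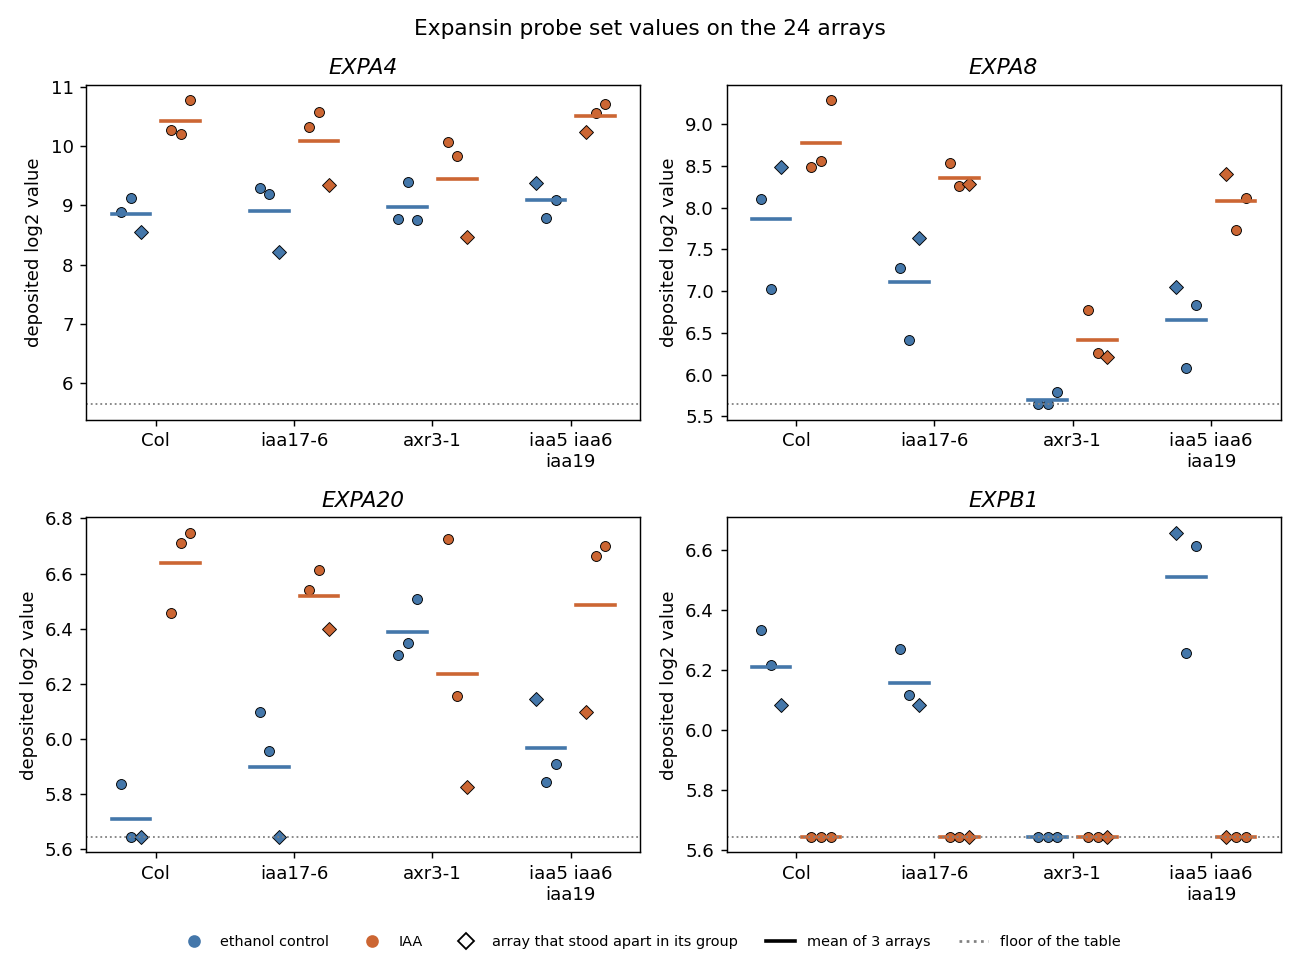
Log2 signal of EXPA4, EXPA8, EXPA20 and EXPB1 (vertical axes) on each of the 24 arrays, by genotype and treatment (horizontal axes), with points for arrays, bars for the mean of 3 arrays and a dashed line for the floor at 5.64. EXPA8 is lower in axr3-1 than in the other genotypes in both treatments, and EXPB1 leaves the floor only on the 9 control arrays of Col, iaa17-6 and the triple mutant.

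Counted over the 4 genes, IAA changed EXPA8 and EXPA20 upward and EXPB1 downward in iaa17-6, and EXPA4 and EXPA8 upward and EXPB1 downward in the triple mutant. These contrasts share no array with Col or axr3-1. EXPB1 entered them through its control arrays alone, so its calls there are a description. Over all probe sets tested, the share called was 7.72% in iaa17-6, 4.41% higher and 3.31% lower, and 7.27% in the triple mutant, 3.68% higher and 3.59% lower. In Col, where the choice used the contrast, 2 genes were called higher and 1 lower against 7.04% of all probe sets, 3.85% higher and 3.18% lower. In axr3-1, 0 of 4 were called by limma, against 2.40% of all probe sets, and 0 had an unadjusted p under 0.05. With the wild type as reference, the axr3-1 controls held 1 gene called higher and 2 lower against 9.05% of all probe sets, 4.65% higher and 4.40% lower. After IAA 1 was called lower against 7.72%, of which 3.49% lower. Against iaa17-6, axr3-1 had 2 called lower in controls (7.71% of all probe sets, 4.64% lower), EXPA8 and EXPB1, and 1 after IAA (7.24%, 4.21% lower), EXPA8. Against the triple mutant it had 1 called lower in controls (8.29%, 4.55% lower), EXPB1, and 1 after IAA (9.76%, 4.09% lower), EXPA8. These contrasts share the axr3-1 arrays.

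**Figure D2:**
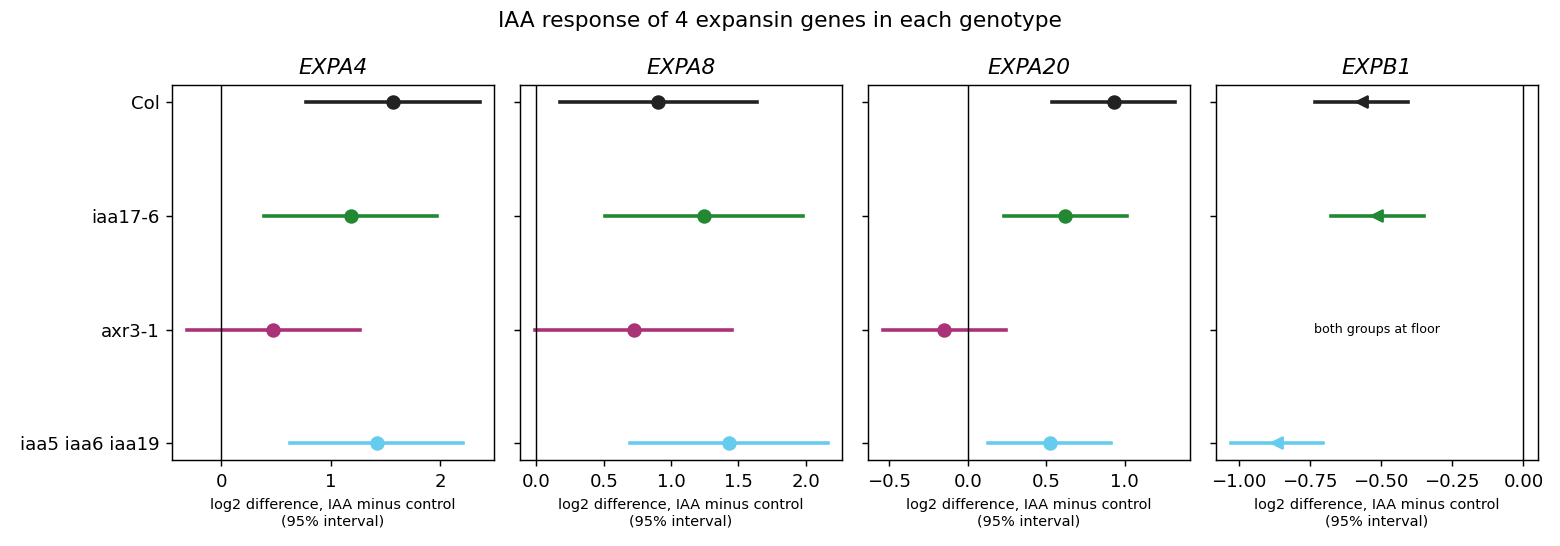
Log2 difference between IAA and control seedlings (horizontal axes) of EXPA4, EXPA8, EXPA20 and EXPB1 in each genotype (vertical axis), with points for the difference of means over 3 arrays a group, lines for the 95% interval of the limma fit and triangles for bounds set by the floor. The alpha-expansin differences lie above 0 in Col, iaa17-6 and the triple mutant, and the axr3-1 intervals include 0 for all 3.

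The difference between the responses was itself tested for each mutant against Col. For iaa17-6 it was log2 -0.39 for EXPA4, 0.34 for EXPA8, -0.31 for EXPA20 and 0.05 for EXPB1. Limma called 0 of 4, against 0.0282% of all probe sets, and 0 had an unadjusted p under 0.05. For the triple mutant it was log2 -0.15 for EXPA4, 0.52 for EXPA8, -0.41 for EXPA20 and -0.30 for EXPB1. Limma called 0 of these 4 as well, against 0.0352% of all probe sets, and 1, EXPB1, had an unadjusted p under 0.05. These comparisons share the Col arrays.

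For axr3-1 the same difference was used by the choice. It was log2 -1.08 (SE 0.26) for EXPA20 and -0.18 for EXPA8, with a 95% interval from -1.22 to 0.85. For EXPA4 it was log2 -1.09 (SE 0.53), with a 95% interval from -2.21 to 0.03, and log2 -0.45 without the arrays that stood apart. For EXPB1 it was log2 0.57 (SE 0.11), the difference of values at the floor, which is no measure of a response in axr3-1. Limma called EXPA20 lower and EXPB1 higher, and 1.62% of all probe sets, 0.874% lower and 0.747% higher, but the choice used this contrast and nothing is read from these calls. The EXPA20 call was kept without axr3-1 IAA replicate 1 and lost without any of the other 11 arrays, with values from log2 -1.33 to -0.88.

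**Figure D3:**
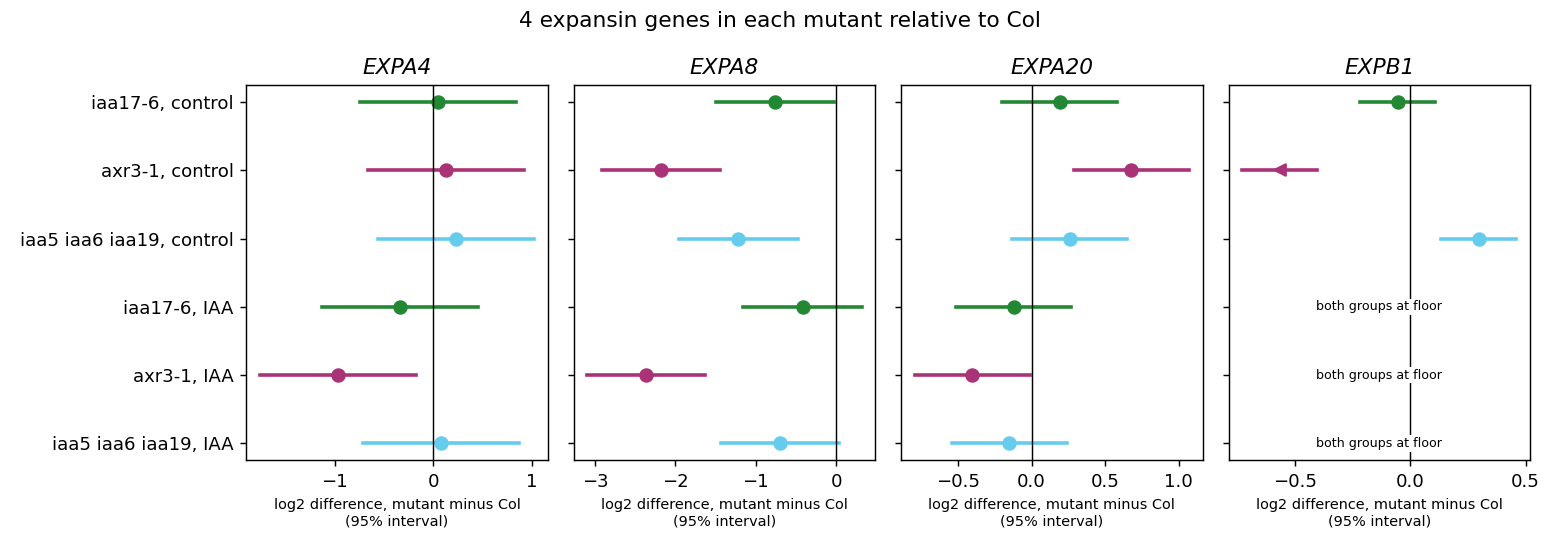
Log2 difference of each mutant from Col (horizontal axes) for EXPA4, EXPA8, EXPA20 and EXPB1, in control and IAA seedlings (vertical axis), with points for the difference of means over 3 arrays a group, lines for the 95% interval of the limma fit and triangles for bounds set by the floor. The axr3-1 differences of EXPA8, at -2.18 and -2.36, lie farthest from 0.

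With all arrays and no array weights, no difference in these genes was called between Col, iaa17-6 and the triple mutant. Against Col, limma called 0 of 4 in iaa17-6 controls, where 0.197% of all probe sets were called, and 0 of 4 after IAA, where 0.106% were. In the triple mutant it called 0 of 4 in controls against 0.176% and 0 of 4 after IAA against 0.148%. At an unadjusted p under 0.05 there was 1 gene, EXPA8, in iaa17-6 controls, 2 genes, EXPA8 and EXPB1, in the triple mutant controls, and 0 in either after IAA. Between iaa17-6 and the triple mutant, which share no array, limma called 0 of 4 in controls against 0.162% and 0 of 4 after IAA against 1.03%. The unadjusted counts were 1, EXPB1, and 0. That EXPB1 control difference was log2 -0.35, lower in iaa17-6, with a limma adjusted p of 0.0868. Without triple mutant control replicate 2 it passed, at log2 -0.48 (limma adjusted p = 0.000475), and so did the EXPB1 difference of the triple mutant from Col, at log2 0.42 against 0.30 with all arrays.

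Across the 8 groups, neighbours in the order of mean level mostly overlapped. EXPA4 ran from 8.85 ± 0.29 (SD, n = 3) in Col controls to 10.50 ± 0.25 in the triple mutant with IAA, and each pair of neighbours in its order overlapped. The EXPA8 order ran from 5.69 ± 0.09 in axr3-1 controls, through 6.41 ± 0.31 in axr3-1 with IAA and 6.65 ± 0.50 in triple mutant controls, to 8.77 ± 0.44 in Col with IAA. The separate neighbours in it were the axr3-1 groups, control and IAA. EXPA20 ran from 5.71 ± 0.11 in Col controls to 6.64 ± 0.16 in Col with IAA, with axr3-1 controls at 6.39 ± 0.11, and all its neighbours overlapped. EXPB1 ran from the 5 groups at the floor to 6.51 ± 0.22 in triple mutant controls.

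The 4 genes did not share 1 pattern over the 8 group means. Pearson's r was 0.83 between EXPA4 and EXPA20, 0.70 between EXPA4 and EXPA8, and 0.31 between EXPA8 and EXPA20. With EXPB1 it was -0.64 for EXPA4, -0.18 for EXPA8 and -0.84 for EXPA20. The group means share genotypes and arrays, and these correlations are a description of 8 points.

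The probe sets most like each gene were sought among 2586 with 1 annotated symbol, a range of group means of at least 0.5 and signal above the floor in at least 2 groups. For EXPA4 the nearest were AT4G34500, AT3G28200 and AT3G09760, with r of 0.990, 0.987 and 0.986. For EXPA8 they were DRT100, AT4G32460 and AT5G48900, at 0.979, 0.976 and 0.973. For EXPA20 they were AT2G41730, AT1G04945 and AT5G63680, at 0.952, 0.951 and 0.946. For EXPB1 they were AT2G44940, the glutathione transferase gene GSTU28, and AT3G06460, at 0.996, 0.978 and 0.972. An r over 0.9 was shared by 129 probe sets with EXPA4, 21 with EXPA8, 18 with EXPA20 and 60 with EXPB1, which is 4.99%, 0.812%, 0.696% and 2.32% of those compared.

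Of 36 listed expansin and expansin-like genes, 18 had a probe set of their own, and 12 of those were above the floor on at least 1 array. The 8 besides the 4 described were EXPA7, EXPA9, EXPA15, EXPA18, EXPB3, EXLA1, EXLA2 and EXLB1. IAA changed 0 of these 8 in Col, in iaa17-6 and in the triple mutant by limma, against 7.04%, 7.72% and 7.27% of all probe sets. At an unadjusted p under 0.05 there were 0 in Col, 2 in iaa17-6, EXLA2 and EXPA18, and 2 in the triple mutant, EXPA15 and EXPA18. In axr3-1 1 of the 8, EXLA2, rose, against 2.40% of all probe sets. Their median IAA difference in Col was log2 0.15, beside 0.00 for all probe sets. The IAA calls among expansins in the genotypes other than axr3-1 were thus those of EXPA4, EXPA8, EXPA20 and EXPB1, which had been chosen with such results known.

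In control seedlings, 5 of the other 8 expansin genes were lower in axr3-1 than in Col, against 4.40% of all probe sets, and 1 was higher, against 4.65%. The root hair genes EXPA7 and EXPA18 were lower by log2 -1.05 and -1.76, both bounds set by the floor. EXPA15 was lower by log2 -1.13 and EXPB3 by -1.34, with every axr3-1 array above the floor. EXLA2 was lower and EXLB1 higher. EXPB3 ran from 6.29 to 7.10 on the axr3-1 control arrays and from 7.62 to 8.34 on the Col control arrays, without overlap. The median over the 8 was log2 -0.85, beside 0.00 for all probe sets. After IAA 4 of the 8 were lower, EXPA7, EXPA15, EXPA18 and EXPB3, against 3.49% of all probe sets, and 2 were higher, EXLA1 and EXLB1, with a median of log2 -0.57.

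**Figure D4:**
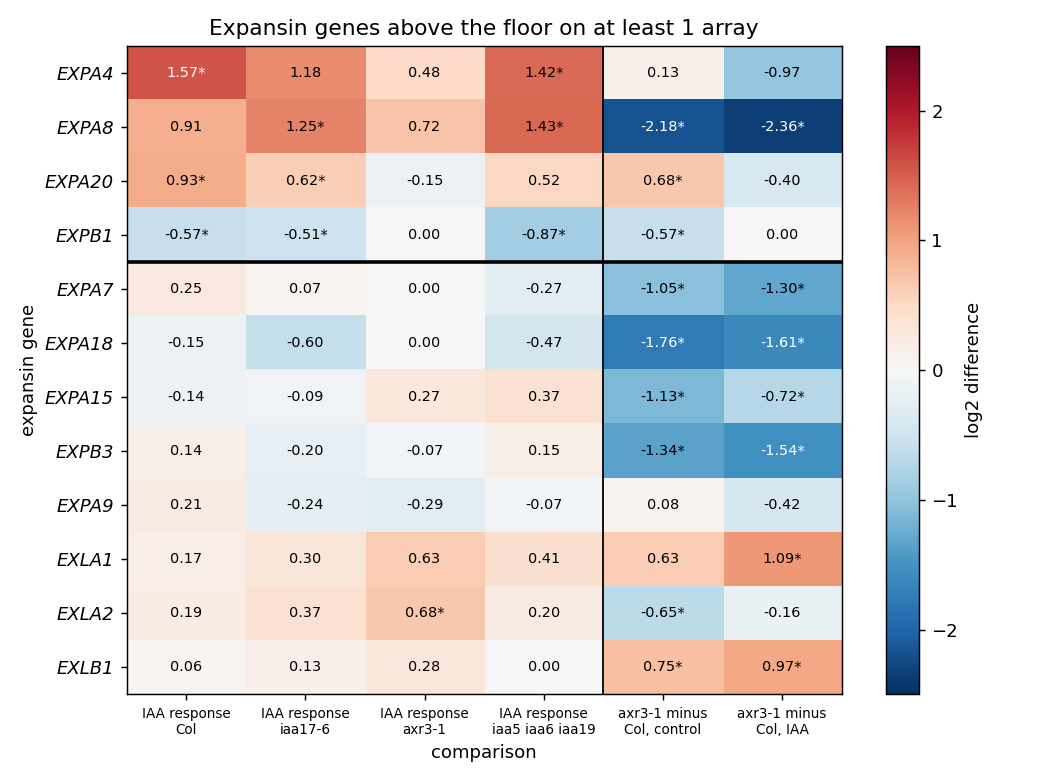
Log2 differences (colour and printed value) of the 12 expansin and expansin-like genes above the floor on at least 1 array (vertical axis) in 6 comparisons (horizontal axis), where a star marks a limma adjusted p under 0.05 and a value of 0.00 in axr3-1 for EXPB1, EXPA7 and EXPA18 stands for both groups at the floor. The stars in the IAA columns of Col, iaa17-6 and the triple mutant lie in the upper 4 rows, and EXPA8 has the lowest printed values in the columns of axr3-1 minus Col, where those of EXPA7 and EXPA18 are bounds.

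Other wall-loosening enzymes were counted beside the expansins. The list held the xyloglucan endotransglucosylase/hydrolase genes (XTH), whose products cut and rejoin xyloglucan, and the glycosyl hydrolase 9 genes (GH9), which encode cellulases. Of 22 with a probe set of their own, 12 were tested. IAA raised 5 and lowered 2 in Col (3.85% and 3.18% of all probe sets), raised 4 and lowered 2 in iaa17-6 (4.41% and 3.31%), and raised 5 and lowered 2 in the triple mutant (3.68% and 3.59%). It raised 3 and lowered 0 in axr3-1 (2.40% in either direction). The 3 raised in axr3-1, XTH18, XTH19 and GH9B13, were also raised in the other genotypes. Against Col, axr3-1 had 8 of the 12 lower and 0 higher in controls (4.40% of all probe sets lower), and 7 lower and 0 higher after IAA (3.49% lower). Their median differences were log2 -0.72 and -0.80, beside 0.00 for all probe sets. Of those lower in controls, GH9C1, GH9B8 and XTH26, also a root hair marker, were at the floor on all axr3-1 control arrays. XTH20 was at the floor on some of these arrays. After IAA, XTH26 was at the floor on all axr3-1 arrays, and XTH20, XTH33, GH9C1 and GH9B8 on some. The differences of these genes are bounds, in full or in part.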

How the data were processed

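Total RNA of 24 seedling samples was hybridised to Affymetrix ATH1 arrays. The deposited values are log2 signals of 1 value per probe set and array, as the values themselves show. The authors' software and normalization are not stated in the labels or headers. The lowest deposited value is 5.64, the log2 of 50, and 44.4% to 46.0% of values per array lie there, so low signals are bounds. Left out were 64 control probe sets and 8554 that never rose above the floor, which left 14192. A model of 8 group means was fitted with limma 3.58.1 in R 4.3.3 (16 residual degrees of freedom, mean trend). It had 19 contrasts, with Benjamini-Hochberg adjustment within each. The model was tested on simulated data with changes only in probe sets well above the floor. That test does not cover values near the floor, where EXPA20, EXPB1 and the axr3-1 control values of EXPA8 lie. Between 2 groups the median SE was 0.152, and between 2 responses 0.215. The number of arrays limits the precision. No 2 arrays held identical values. One axr3-1 array's title spells the line arx3-1, and its description gives axr3-1.

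The members and lists were chosen with earlier results of these data known. Named genes were the 4 members, the 3 probe sets most like each, expansins past the threshold in a contrast, and counts of listed wall genes. Groups were taken as paired where same-numbered arrays all correlated over 0.1 in their deviations from group means, a hint from the data and not from the labels. That held for control and IAA arrays of iaa17-6 (0.16, 0.56 and 0.70) and of the triple mutant (0.84, 0.58 and 0.63), for Col and iaa17-6 controls (0.33, 0.62 and 0.72), and for axr3-1 and iaa17-6 with IAA (0.27, 0.58 and 0.79). Alternatives were other normalizations, filters, array weights, blocks, no mean trend and left-out arrays. Leaving out the arrays that stood apart, a term for them, and the replicate block in paired groups were chosen after seeing the data.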

Additional observations from a re-analysis of the deposited data

Results flagged for a closer look

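The IAA response of EXPA20 differed between axr3-1 and Col by log2 -1.08 (SE 0.26), with 3 of 3 IAA arrays above all controls in Col and an overlap in axr3-1. It is listed because the difference of the 2 responses passed the limma threshold. The genes were chosen with this contrast known, so the call tests nothing further. Without 1 array at a time the value ran from -1.33 to -0.88, and the call was kept without axr3-1 IAA replicate 1 and lost without any of the other 11 arrays. The IAA response of EXPB1 differed by log2 0.57 (SE 0.11) and is listed for the same reason. EXPB1 was at the floor on all 6 axr3-1 arrays, so this value is the fall of Col to the floor set against no measurable response.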

How the results depend on the processing

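Of 374 alternative values for the IAA responses of the 4 genotypes and for axr3-1 against Col, 324 kept their side of the threshold, 38 lost a call and 12 gained one. None of the called differences changed sign, and EXPB1 kept its calls in all of these. With the replicate block in all groups, EXPA4 in iaa17-6 (log2 1.18) and EXPA8 in Col (0.91) passed and EXPA20 in iaa17-6 (0.62) did not. A replicate block for the 2 paired groups alone, in the fit of all 8 groups, made EXPA4 in iaa17-6 pass (1.18) and changed no other call. Without the filter, calls were lost for EXPA4 in the triple mutant (1.42), EXPA8 (1.25) and EXPA20 (0.62) in iaa17-6, and EXPA20 in axr3-1 against Col controls (0.68). With only the groups compared in the fit they were lost for EXPA8 in iaa17-6 (1.25), in the triple mutant (1.43) and in axr3-1 against Col controls (-2.18), and for EXPA20 in iaa17-6 (0.62). Array weights lost EXPA8 (1.25) and EXPA20 (0.55) in iaa17-6 and EXPA20 in axr3-1 against Col controls (0.66), and gained EXPA20 in the triple mutant (0.74). Without the mean trend, EXPA20 in iaa17-6 (0.62) lost its call. Leaving out the 6 arrays that stood apart gained EXPA4 in iaa17-6 (1.22) and axr3-1 (0.97) and EXPA20 in the triple mutant (0.81), and lost EXPA8 in the triple mutant (1.47) and EXPA20 in iaa17-6 (0.55). A term for those arrays gained EXPA4 in iaa17-6 (1.18) and EXPA20 in the triple mutant (0.52). Leaving out 1 array at a time gave ranges of log2 1.39 to 1.70 for EXPA4 in Col, 0.84 to 1.55 in iaa17-6, 0.17 to 0.97 in axr3-1 and 1.27 to 1.57 in the triple mutant, and of -1.27 to -0.48 in axr3-1 against Col with IAA. EXPA8 ran from 0.48 to 1.21 in Col, 0.90 to 1.51 in iaa17-6 and 1.14 to 1.62 in the triple mutant. EXPA20 ran from 0.49 to 0.72 in iaa17-6, -0.40 to 0.06 in axr3-1, 0.42 to 0.72 in the triple mutant, 0.62 to 0.74 in axr3-1 against Col controls and -0.65 to -0.20 in axr3-1 against Col with IAA. Those fits hold fewer arrays, and the cause of the other changes was not tested. Requiring every array above the floor leaves EXPA4 alone of the 4 genes.

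The number of probe sets called also moved. It was 999 for IAA in Col and ran from 576 where every array had to be above the floor to 1753 with array weights. It was 1096 in iaa17-6 (363 with only the groups compared), 341 in axr3-1 (84 with only the groups compared, 208 without axr3-1 IAA replicate 3) and 1032 in the triple mutant (561 with every array above the floor, 2348 with array weights). For axr3-1 against Col it was 1285 in controls (482 with only the groups compared) and 1095 after IAA (583 with every array above the floor). Where few were called the counts moved most. Between iaa17-6 and Col they were 28 in controls (8 without Col control replicate 3, 71 without Col control replicate 2) and 15 after IAA (85 without iaa17-6 IAA replicate 2). Between the triple mutant and Col they were 25 in controls (2 without Col control replicate 1, 81 without Col control replicate 2, 221 with array weights) and 21 after IAA (6 without triple mutant IAA replicate 2, 1698 with array weights). Between iaa17-6 and the triple mutant they were 23 in controls (325 with array weights) and 146 after IAA (50 without triple mutant IAA replicate 3, 344 without iaa17-6 IAA replicate 2). The floor limits EXPB1, EXPA20 and the axr3-1 values of EXPA8, whose differences can be larger than measured.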

Other observations

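The 3 expansin-like genes measured, whose wall activity is not established, each differed between axr3-1 and Col in at least 1 treatment by the limma threshold. EXLB1 was higher in axr3-1 than in Col by log2 0.75 (SE 0.21) in controls and by 0.97 (SE 0.21) after IAA. EXLA1 differed by log2 0.63 (SE 0.24) in controls, which was not called, and was higher by 1.09 (SE 0.24) after IAA. EXLA2 was lower in axr3-1 controls by log2 -0.65 (SE 0.14) and rose with IAA in axr3-1 by 0.68 (SE 0.14). Its mean went from 5.87 ± 0.14 to 6.55 ± 0.13 (SD, n = 3), beside 6.52 ± 0.13 and 6.71 ± 0.06 in Col. These contrasts were known when the lists were chosen, so the values are a description.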
